A study of Homo sapiens with 6 samples.

Results

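Peaks of YAP, YAP5SA and TEAD were examined at 5 microRNA loci in CCLP1, an established human cholangiocarcinoma (bile duct cancer) cell line. Chromatin immunoprecipitation followed by sequencing (ChIP-seq) gave a peak list for each of 3 libraries: Flag-Bio-YAP5SA (called YAP5SA below), a tagged YAP mutant in which serines phosphorylated by LATS kinases are replaced by alanine; YAP, precipitated with an antibody; and TEAD, precipitated with an antibody that the design text gives as directed against TEAD1. All libraries come from this cell line. The mutant reports on an introduced protein whose level was not measured here. IgG, Input and BirA libraries, the last being the control of the tagged protein, were not used here, so no background stands beside the values. Each list comes from 1 library. No value below has a replicate error, and differences between lists can be differences between libraries.

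A peak was a member when it lay within 50 kb of 1 of 5 hg19 spans given in kb: MIR99AHG on chromosome 21 from 17443 to 17982 kb, MIR21 on chromosome 17 from 57918 to 57919 kb, MIR29A on chromosome 7 from 130561 to 130563 kb, MIR100HG on chromosome 11 from 121960 to 122074 kb and MIR31HG on chromosome 9 from 21456 to 21560 kb. The loci were chosen from the peak positions and scores of these same lists, so counts and overlaps at them are a description and were given no test. There were 58 member peaks: 12 of the 9616 YAP5SA peaks, 3 of the 3867 YAP peaks and 43 of the 9321 TEAD peaks. The score of a peak is the authors' own value, with 50 the lowest and 3100 the highest in each list, and it ranks peaks only within a list. Read depth is unknown, since peak lists do not hold it.

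YAP is a transcriptional co-activator that the Hippo pathway keeps out of the nucleus. It has no DNA-binding domain of its own and reaches chromatin through partners, foremost the TEAD proteins. MicroRNAs are short RNAs cut from longer host transcripts. Each recognises its target messenger RNAs mainly through its seed, so that microRNAs with the same seed share many targets.

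The mature sequences show how the 5 loci relate. All 10 microRNA genes looked for were found in RefSeq (GRCh38.p14 tables). They are written 5′ to 3′ with the seed, bases 2 to 8, in capitals.
miR-99a-5p (MIR99AHG): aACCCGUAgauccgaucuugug
miR-100-5p (MIR100HG): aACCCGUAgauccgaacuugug
let-7c-5p (MIR99AHG): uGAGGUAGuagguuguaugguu
let-7a-5p (MIR100HG): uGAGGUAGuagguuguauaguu
miR-125b-5p (MIR99AHG and MIR100HG): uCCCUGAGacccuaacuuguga
miR-21-5p (MIR21): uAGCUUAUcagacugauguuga
miR-29a-3p (MIR29A): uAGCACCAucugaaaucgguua
miR-29b-3p (MIR29A): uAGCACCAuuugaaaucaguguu
miR-31-5p (MIR31HG): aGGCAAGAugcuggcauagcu

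The 10 genes carry 6 seeds. MIR99AHG and MIR100HG hold matching sets: their miR-125b sequences are identical, miR-99a differs from miR-100 by A16U and let-7c from let-7a by A19G. Positions count from the 5′ end, with the base of the MIR100HG microRNA first. The let-7 family is known to restrain growth regulators such as HMGA2 and RAS, and the miR-99/100 family targets mTOR. miR-21, whose gene lies inside VMP1 in RefSeq, is overexpressed in many carcinomas and represses PDCD4. miR-29a and miR-29b target collagens and other matrix genes, and their genes sit next to the long noncoding RNA gene LINC-PINT in RefSeq. miR-31 has been described as growth-promoting or growth-restraining depending on the tumour.

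The 5 loci differed widely in occupancy. MIR99AHG had 7 YAP5SA, 2 YAP and 19 TEAD peaks. MIR29A had 2 YAP5SA peaks, 1 YAP peak and 11 TEAD peaks. MIR21 had 1 YAP5SA peak, no YAP peak and 12 TEAD peaks. MIR31HG had 1 YAP5SA and 1 TEAD peak, and MIR100HG had 1 YAP5SA peak and nothing else. The loci are of unequal length. Per Mb of window, TEAD peaks numbered 119 at MIR21, 108 at MIR29A, 29.7 at MIR99AHG, 4.90 at MIR31HG and 0 at MIR100HG. MIR99AHG thus held the most TEAD peaks, but the short MIR21 and MIR29A windows held them more densely.

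**Figure D1:**
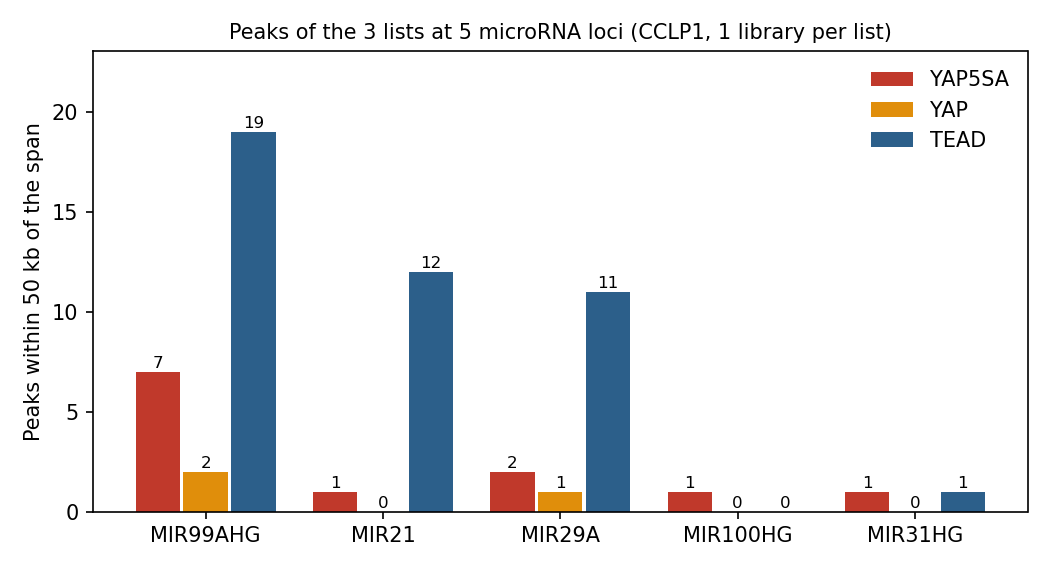
Number of peaks (vertical axis) within 50 kb of each span, with bars for YAP5SA, YAP and TEAD at each locus. TEAD peaks number 19, 12 and 11 at MIR99AHG, MIR21 and MIR29A, against 0 at MIR100HG and 1 at MIR31HG.

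As background, the chromosomes were laid out in windows as long as each locus window. At the MIR99AHG length (639 kb), 81.4% of windows held at least 1 YAP5SA peak, 49.1% a YAP peak and 56.0% a TEAD peak. A window of that length held a mean of 2.04 YAP5SA, 0.807 YAP and 1.96 TEAD peaks. At the MIR21 length (101 kb) the shares were 26.5% for YAP5SA, 10.8% for YAP and 17.4% for TEAD, with a mean of 0.311 TEAD peaks. At the MIR29A length (102 kb) they were 26.7%, 10.9% and 17.5% in the same order, with a mean of 0.314 TEAD peaks. At the MIR100HG length (214 kb) they were 46.7%, 21.0% and 30.0%, and at the MIR31HG length (204 kb) 45.0%, 20.3% and 29.1%. Most windows of the MIR100HG length thus held no YAP peak, and most held no TEAD peak.

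MIR99AHG, the host of let-7c, miR-99a and miR-125b, had its 4 highest-scoring TEAD peaks and its highest-scoring YAP5SA peak in one stretch near the far end of the span. Peaks of one list were joined into a cluster where neighbours lay at most 12500 bp apart and at least 3 were joined. One cluster held 7 TEAD peaks over 22.8 kb from 17923497 to 17946289 (hg19, counted from 1). All 5 YAP5SA peaks of a YAP5SA cluster from 17923630 to 17946175 fell in the same stretch, as did 1 YAP peak. These centres lay 480.7 to 503.1 kb from the start of the span, which is 539 kb long. The other 12 TEAD peaks of this window ran from a score of 51.4 to 287.

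**Figure D2:**
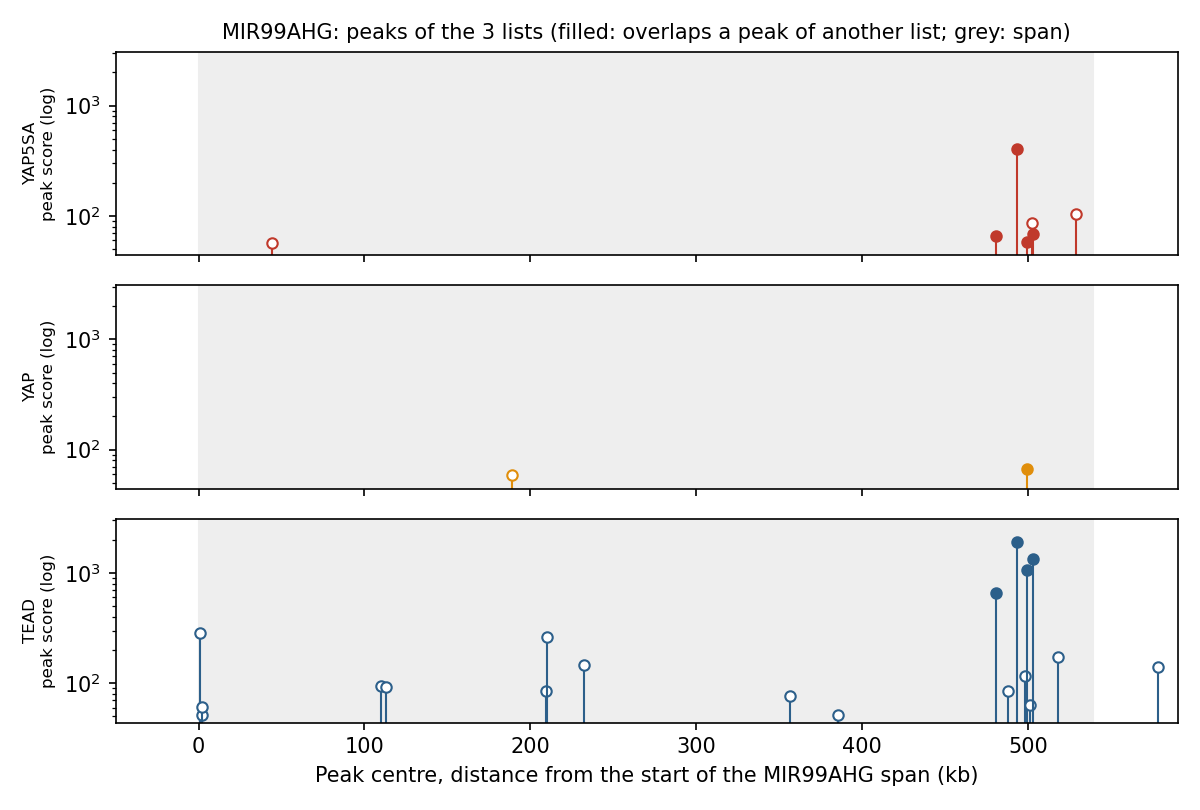
Peak score (vertical axis, log scale) against distance of the peak centre from the start of the MIR99AHG span in kb, for YAP5SA, YAP and TEAD from top to bottom; filled points overlap a peak of another list and the grey area is the span. The filled points of all 3 lists stand together between 480.7 and 503.1 kb.

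The highest TEAD peak of the stretch, from 17935995 to 17936897, scored 1917 and ranked at position 31 of 9321. It covered a YAP5SA peak from 17936036 to 17936482 with a score of 402, at position 11 of 9616, with centres 187 bp apart. The pair was the strongest of all member peaks in either list. No YAP peak overlapped it; the nearest YAP peak lay 5354 bp away from the TEAD peak.

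The TEAD peak from 17941898 to 17942843 (score 1062, position 106) was the one member region with peaks of all 3 lists. Within it lay a YAP5SA peak from 17942490 to 17942605 (score 58.1) and a YAP peak from 17942252 to 17942671 (score 66.3). The YAP5SA centre lay 177 bp and the YAP centre 91 bp beyond the TEAD centre. This TEAD peak is strong in its list, whereas its YAP5SA partner, at position 4452 of 9616, and its YAP partner, at 951 of 3867, are not.

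A pair of further TEAD peaks in the stretch met YAP5SA. The one from 17945874 to 17946289 scored 1337 (position 55) and covered a YAP5SA peak from 17945965 to 17946175 that scored 68.5, with centres 11.5 bp apart. The one from 17923497 to 17923869 scored 659 (position 294) and covered a YAP5SA peak from 17923630 to 17923813 that scored 65.9, with centres 38.5 bp apart. The remaining 3 TEAD peaks of the cluster, with scores of 63.2, 85.3 and 117, met neither list. The fifth YAP5SA peak, from 17945108 to 17945361 with a score of 86.7, stood 512 bp from the nearest TEAD peak.

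**Figure D3:**
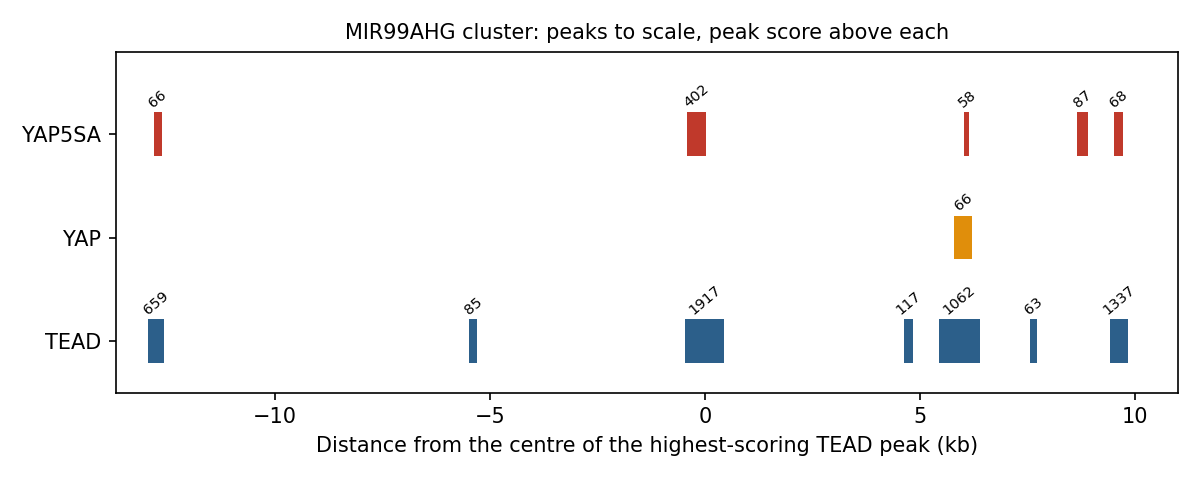
Peaks of the MIR99AHG cluster drawn to scale (horizontal axis: distance in kb from the centre of the highest-scoring TEAD peak), in rows for YAP5SA, YAP and TEAD, with the score above each peak. The TEAD peaks that scored 1917, 1337, 1062 and 659 each lie over a YAP5SA peak, and the single YAP peak lies on the 1062 peak.

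Elsewhere in MIR99AHG the lists did not coincide. At the start of the span, the end from which the host gene is transcribed, a TEAD cluster of 3 peaks ran from 17443601 to 17445413, led by a peak that scored 287 at 17443601 to 17444002. No YAP5SA or YAP peak lay in it, and the nearest YAP5SA peak, from 17487303 to 17487479 (score 57.3), was 41889 bp away. A TEAD peak from 17652715 to 17652960 scored 265. The second YAP peak, from 17631818 to 17632081, scored 59.0 and lay 20314 bp from the nearest TEAD peak. A YAP5SA peak from 17971516 to 17971693 scored 105, at position 259 of its list, and stood 10475 bp from the nearest TEAD peak. This peak, high in its own list, had no listed TEAD partner. The same holds for most peaks, since 5.44% of the YAP5SA list and 8.28% of the YAP list met a TEAD peak. Of the TEAD list, 5.49% met a YAP5SA peak.

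MIR21 was flanked on both sides by TEAD peaks of modest score. A cluster of 8 ran over 13.7 kb from 57906778 to 57920481 on both sides of the span. The nearest TEAD peak before the span, from 57917529 to 57917711, scored 67.7 with its centre 0.4 kb away, and the nearest after it, from 57919875 to 57920072, scored 66.7 at 1.0 kb. The 3 highest scores of the locus were 234 at 57910287 to 57910589, 155 at 57915077 to 57915468 and 117 at 57920081 to 57920481. None of the 12 TEAD peaks stood in the highest 10% of the TEAD list, and the median score of 69.2 was below that of the whole list, 76.2. The spans are given to the kb, so distances hold to about 1 kb.

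None of these 12 TEAD peaks met a YAP5SA or YAP peak. Over the whole TEAD list 5.49% met YAP5SA and 4.48% met YAP, so this absence does not set the locus apart from the list. The single YAP5SA peak, from 57880142 to 57880411, scored 57.0, lay 37.7 kb before the span and was 7642 bp from the nearest TEAD peak. Just beyond the 50 kb limit the picture differed. A TEAD cluster of 10 peaks from 57855270 to 57872499 reached into the window with only its last 2 peaks, at 49.5 and 45.6 kb before the span, which scored 63.6 and 57.1. The first TEAD peaks outside the limit stood 54.0 kb before the span, with a score of 175, and 53.4 kb after it, with a score of 55.9. Between 50 and 100 kb before the span, 3 YAP5SA peaks overlapped TEAD peaks: from 57839101 to 57839338 (score 82.9, on a TEAD peak that scored 783), from 57860389 to 57860608 (score 94.9, on one that scored 99.99) and from 57855020 to 57855270 (score 78.8). The last of these touched its TEAD peak, which scored 50.2, by 1 bp.

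At MIR29A the TEAD peaks lay on both sides of the microRNA pair and the shared ones at a distance. The TEAD peak nearest the span, from 130559526 to 130559690, scored 55.2 at 1.4 kb. The strongest, from 130597893 to 130598761, scored 710 (position 261 of the list), lay 35.3 kb beyond the span on the LINC-PINT side, and covered a YAP5SA peak from 130598132 to 130598327 with a score of 59.1. The TEAD peak from 130530118 to 130530859 scored 632 (position 313) at 30.5 kb on the other side and covered the one YAP peak, from 130530179 to 130530555, which scored 72.6. The centres of the members of these pairs were 97.5 bp apart for YAP5SA and TEAD and 121.5 bp apart for YAP and TEAD. A TEAD peak from 130571894 to 130572289, 9.1 kb from the span, scored 354 and met neither. The other YAP5SA peak, from 130553577 to 130553736, scored 67.1 and lay 5789 bp from the nearest TEAD peak. Each of the strong TEAD peaks belonged to its own TEAD cluster, the first of 5 peaks from 130586029 to 130598761 and the second of 4 from 130523390 to 130530859.

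**Figure D4:**
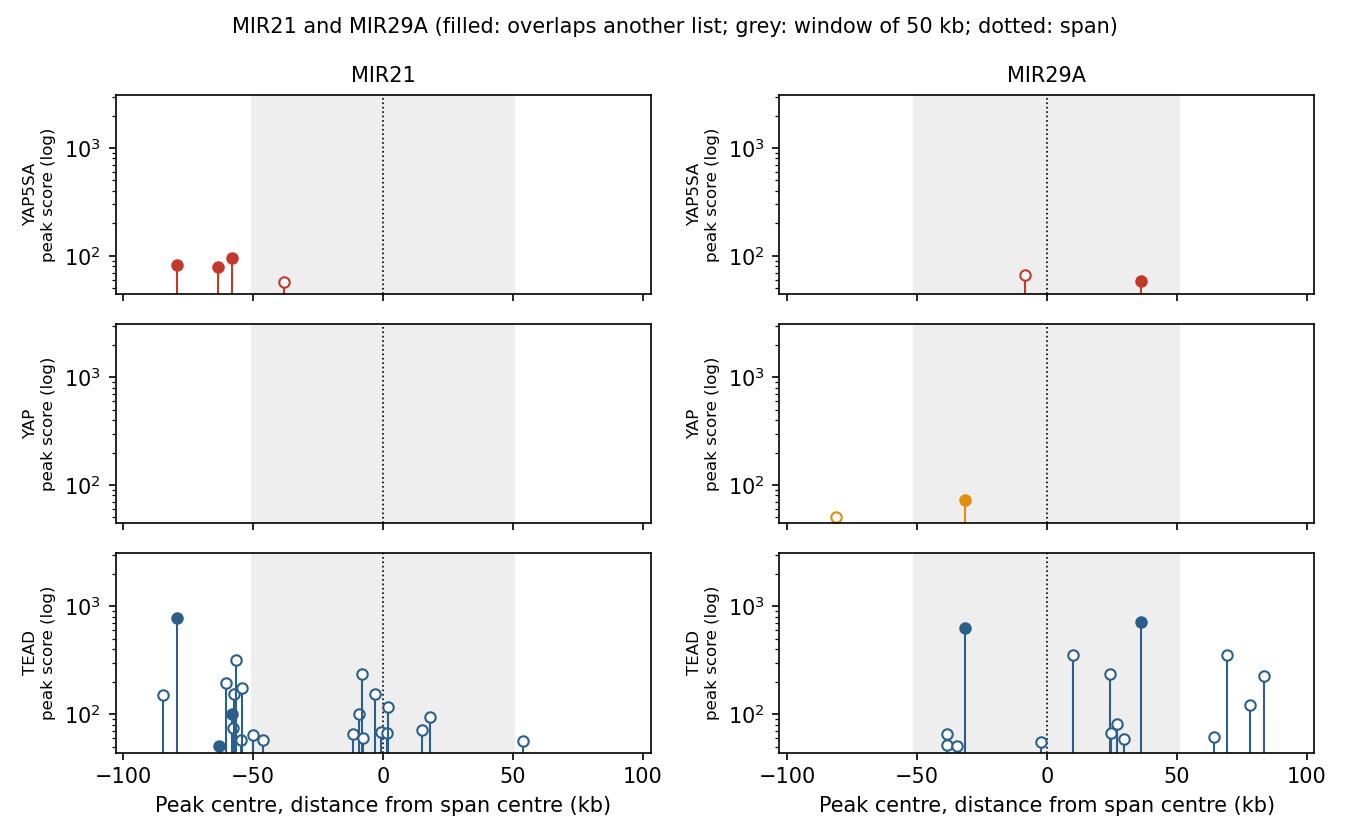
Peak score (vertical axis, log scale) against distance of the peak centre from the span centre in kb at MIR21 (left) and MIR29A (right), for YAP5SA, YAP and TEAD from top to bottom; the grey area is the 50 kb window and filled points overlap another list. At MIR21 the filled points lie outside the window, and at MIR29A the filled TEAD points, which scored 632 and 710, lie inside it.

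MIR100HG and MIR31HG held few peaks, which is usual for windows of their lengths. A window of the MIR100HG length held a mean of 0.683 YAP5SA, 0.27 YAP and 0.658 TEAD peaks. At the MIR31HG length the means were 0.651, 0.258 and 0.627 in the same order. The MIR100HG window held a YAP5SA peak from 122082408 to 122082547, with a score of 52.1, 8.5 kb past the span and 300718 bp from the nearest TEAD peak. MIR31HG held a YAP5SA peak inside the span, from 21486444 to 21486607, with a score of 86.7 at position 521 of 9616, and a TEAD peak of score 55.2 from 21581970 to 21582098. These 2 peaks were 95362 bp apart. MIR100HG and MIR99AHG, whose microRNAs share the seeds shown above, differed in number of peaks. They held 0 against 19 TEAD peaks and 1 against 7 YAP5SA peaks, in windows of 214 and 639 kb. Per Mb, these were 0 against 29.7 TEAD peaks and 4.67 against 11 YAP5SA peaks. MIR21 and MIR29A held more TEAD peaks per Mb than MIR99AHG, and only 30.0% of windows of the MIR100HG length held a TEAD peak. The MIR100HG span used here is 114 kb long, whereas the RefSeq gene is 395 kb. In a choice made after seeing the data, the span was widened on each side by the difference between these lengths. The widened span is thus longer than the RefSeq gene. The TEAD peaks of all 5 loci then numbered 44 in place of 43, the added peak being at MIR100HG.

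Over all 5 loci, overlap between lists went with the TEAD score. The 6 highest-scoring TEAD peaks were the 6 that met a YAP5SA or YAP peak. None of the other 37 did, the next score being 354. This clean separation did not hold beyond 50 kb. Between 50 and 100 kb before MIR21, TEAD peaks that scored 783, 99.99 and 50.2 met YAP5SA. At that distance from MIR29A and MIR99AHG, peaks that scored 354 and 349 met neither list. Within 50 kb, the 5 TEAD peaks that met YAP5SA had scores from 659 to 1917 with a median of 1062. The 38 others had a median of 78.8 and a range of 50.4 to 632. Over the whole TEAD list the medians were 369 for peaks that met YAP5SA and 74.1 for the rest. The order seen at the loci is therefore that of the list as a whole. At the loci, the median width was 869 bp for TEAD peaks that met YAP5SA and 214 bp for the others. By median, the peaks that met YAP5SA were thus both higher in score and wider. The part of width in the overlap was not tested.

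**Figure D5:**
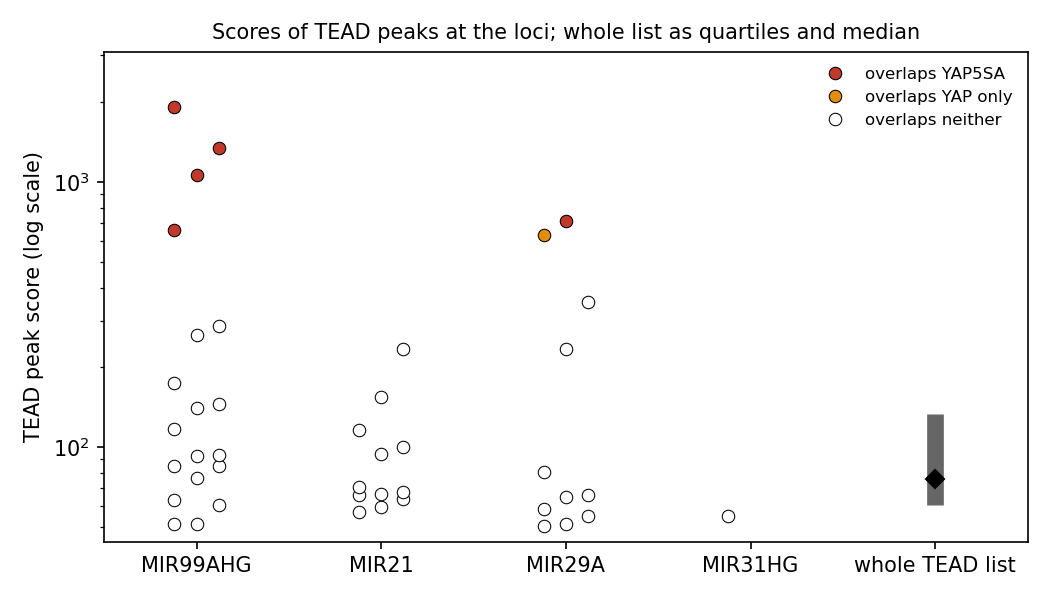
Scores of member TEAD peaks (vertical axis, log scale) by locus, coloured by overlap with YAP5SA or YAP, with the whole TEAD list at the right as quartiles (bar) and median (diamond). The 6 coloured points are the 6 highest, all at 632 or above, and lie at MIR99AHG and MIR29A.

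In counts, 5 of 43 member TEAD peaks overlapped a YAP5SA peak (11.6%, exact Clopper-Pearson 95% interval 3.89 to 25.1), against 5.49% of the whole TEAD list. A YAP peak was met by 2 of 43 (4.65%, 0.568 to 15.8), against 4.48% of the list. Of the YAP5SA members, 5 of 12 met a TEAD peak (41.7%, 15.2 to 72.3), against 5.44% of the YAP5SA list, and 1 of 12 met a YAP peak (8.33%, 0.211 to 38.5), against 1.15%. Among the 3 YAP members, 2 met a TEAD peak, against 8.28% of the YAP list, and 1 met a YAP5SA peak, against 2.64%. The intervals cover counting error only, as if peaks were independent, and are no test against the list. Of the 5 YAP5SA peaks that met TEAD, 4 stand in one 22.8 kb stretch.

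Peaks at the loci often lay in clusters. In TEAD clusters lay 29 of 43 member peaks (67.4%, 51.5 to 80.9), against 29.5% of the TEAD list: 10 at MIR99AHG, 10 at MIR21 and 9 at MIR29A. In a YAP5SA cluster lay 5 of 12 members (41.7%, 15.2 to 72.3), all in the one MIR99AHG stretch, against 1.41% of the YAP5SA list. In the highest-scoring 10% of the TEAD list stood 7 of 43 members (16.3%, 6.81 to 30.7), against 10.0% by construction. Of the YAP5SA members 4 of 12 did so (33.3%, 9.92 to 65.1), against 10.1%, ties included. The loci were selected on these same peaks, so neither share is support for a property of microRNA loci.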

How the data were processed

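ChIP-seq peak lists of 3 CCLP1 libraries were analysed. Per the labels' protocols, cells were fixed for 10 min in 1% formaldehyde, and glycine at 0.125 M ended the fixation before sonication to about 250 bp. Bowtie2 and the build hg19 are named for the alignment per the submitters' processing notes. Each deposited list gives positions and a score per peak, and peak names begin with MACS. From its range, the score was taken to be 10 times a negative log10 p-value. The version, threshold and control library of the peak calls were not given in the sources used here. There is 1 deposited list per library.

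Starts were read as counted from 0 and are printed counted from 1; 1 start below 0 was set to 0. Overlap meant at least 1 bp. Background windows were laid end to end between the first and last peak of each chromosome, contigs excluded. Every member peak that overlaps another list, the 3 highest-scoring peaks of each locus and list, and the peaks nearest to MIR21 and MIR29A were to be named. A few others were named after their values were seen. Members and lists were chosen with earlier results of these data known. Alternatives were distances of 25 and 100 kb, the higher-scoring 50% of each list, omission of peaks over 1 kb or of MIR99AHG, a reciprocal overlap of 50%, centres within 250 bp, and cluster distances of 5 and 25 kb. A widened MIR100HG span was added after the data were seen. The code recovered all 200 planted overlaps for each of 6 ordered pairs of lists and 150 planted cluster members, and its overlap counts equalled those of bedtools 2.31.1. Python 3.11.15, scipy 1.17.1 and matplotlib 3.10.9 were used. Sequences came from RefSeq tables, matched by name. No hg19 sequence or annotation was used.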

Additional observations from a re-analysis of the deposited data

How the results depend on the processing

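Across 50 recomputed values of 8 results, 40 stayed within 1.5 times the reported count or within the 95% interval of the reported share. These include the widened MIR100HG span, which was added after seeing the data. That setting barely changed the members, with 44 TEAD peaks in place of 43, and all 8 of its values stayed within. The count of 40 therefore overstates how stable the results are. Those intervals are wide, so shares counted there could still move by a large factor. TEAD peaks numbered 65 within 100 kb and 25 in the higher-scoring 50% of each list. Without MIR99AHG there were 24 TEAD peaks, 5 YAP5SA peaks and 1 YAP peak, and 2 regions with peaks of at least 2 lists in place of 6, so that locus holds most of the overlap. The share of TEAD peaks that met YAP5SA was then 4.17% (1 of 24, interval 0.105 to 21.1), in place of 11.6%. That of YAP5SA peaks that met TEAD was 20.0% (1 of 5, 0.505 to 71.6), in place of 41.7%. Each share rests on 1 peak, and the list shares are 5.49% and 5.44%. The intervals are no test against the list, so no member share here or above is placed above or below its list. In the higher-scoring 50% of each list, 20.0% of TEAD peaks met YAP5SA and 8% met YAP, in place of 4.65%. With a reciprocal overlap of 50%, the share of TEAD peaks that met YAP5SA was 2.33% and the share of YAP5SA peaks that met TEAD was 8.33%. Shared regions then numbered 2. In the other regions the YAP5SA or YAP peaks covered less than 50% of the TEAD peak. Some pairs missed this cutoff narrowly. In the strongest pair a YAP5SA peak of 447 bp lay on a TEAD peak of 903 bp. In another, 184 bp lay on 373 bp. With peak centres within 250 bp the 6 regions were counted as before. A cluster distance of 25 kb put 86.0% of member TEAD peaks in clusters, and one of 5 kb put 62.8% there, in place of 67.4%. In the higher-scoring 50% of each list this share was 52%. It was 60.6% for peaks within 25 kb of the spans, 72.3% within 100 kb and 79.2% without MIR99AHG. Whole-list shares are at hand for the main settings only. Whether the member shares moved relative to the lists under changed score, overlap or cluster settings was not tested. Omission of peaks over 1 kb could change nothing, since 0 member peaks are that wide, and is not counted above. No paired analysis was possible because there is 1 library per group. Unknown read depth limits how many weak peaks are listed, so a locus without a peak is not shown to be unbound.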

Other observations

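The neighbourhoods of the loci also differed in number of peaks, but not in the order of the windows: MIR21, not MIR99AHG, had the most TEAD peaks. These counts include the windows, cover unequal lengths and have no background beside them. Within 1 Mb (1000 kb) of the span, MIR99AHG had 12 YAP5SA, 3 YAP and 43 TEAD peaks, MIR21 had 9, 3 and 48, and MIR29A had 9, 5 and 21. MIR100HG had 9 YAP5SA peaks, 1 YAP peak and 4 TEAD peaks over that distance, and MIR31HG had 3, 1 and 7. YAP5SA peaks around MIR100HG were thus as many as around MIR21 and MIR29A, while TEAD peaks were fewer. Before the MIR99AHG span, 6 further TEAD peaks stood between 50 and 100 kb away, in a cluster of 9, with scores of up to 349, and none met a YAP5SA or YAP peak.

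The TEAD motif, searched as GGAATG and its reverse complement CATTCC, was looked for in RefSeq promoter windows (GRCh38.p14, 250 bases before to 50 after a start). It was found in 0 of 6 windows of MIR99AHG, 1 of 6 of MIR100HG and 0 of 1 of MIR31HG, against 14.0% of all 35116 windows. These windows could not be placed on the hg19 peaks, and the counts say only where these letters occur.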
